A study of Mus musculus with 6 samples.

Results

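The endoplasmic reticulum (ER) folding and quality control genes described here are 39 genes fixed by name: chaperones, disulfide and prolyl isomerases, genes of ER-associated degradation, and sensors of the unfolded protein response. They were found by their symbols in the GENCODE M21 annotation of the mouse, where all 39 matched 1 of the 54446 gene identifiers of the count table. Of them, 38 passed the filter on low counts that left 14956 genes to test, and Derl3 did not.

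Secreted and membrane proteins fold in the ER, where Hsp70 and Hsp90 chaperones, the lectins calnexin and calreticulin, and enzymes that form disulfide bonds act on them. Proteins that fail to fold are sent back to the cytosol and degraded by the proteasome. When unfolded proteins accumulate, the sensors ATF6, IRE1 (encoded by Ern1) and PERK (encoded by Eif2ak3) start the unfolded protein response. Cleaved ATF6 and the spliced form of XBP1 are transcription factors that raise chaperone and degradation genes, whereas PERK slows translation and favours synthesis of the transcription factor ATF4. Calreticulin and the disulfide isomerase Pdia3 also help to load peptides onto MHC class I molecules.

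The RNA came from TRAMP-C2, a single cell line made from a prostate tumour of a TRAMP mouse, in which the probasin promoter drives the SV40 T antigen in prostate epithelium. The labels give the strain as C57BL/6, and all groups were grown in the same medium with serum, bovine insulin and dehydroisoantrosterone (as the labels spell it). Cells received no drug (control), 2 µM oxaliplatin or 2 µM cisplatin for 24 h, with 2 libraries of poly(A) RNA per group, and the comparison asks which genes each drug moved and whether the drugs differed. Nothing in the labels says that the libraries of a group came from separate cultures, so p-values measure the spread between these libraries, which may be technical.

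The libraries held between 21345312 and 24041767 counts. A count of 0 allows up to 3 counts, or 0.125 to 0.141 CPM (counts relative to the library's depth), and this limit covers counting error only. Of the prostate epithelial markers reported here, Cdh1 had 356 to 562 counts, Krt8 and Krt18 had 93 to 173, and Hoxb13 and Epcam had 0 to 3. Col1a1, which encodes the main fibrillar collagen chain, had 97399 to 124765 counts, and collagen is a client of several members. Among the basal epithelial markers, Krt14 had 79 to 163 counts, near the range of Krt8 and Krt18, whereas Trp63 had 3 to 19 and Krt5 had 0. Of the leukocyte, endothelial and plasma cell markers, Cd68 had 30 to 51 counts and the other 7 had 8 or fewer in every library. In bulk RNA, fewer cells of a type and less RNA per cell cannot be told apart.

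Some of these genes, but not most, carry short stress elements near their start sites. The sequences shown are those that set some members apart from most promoters. In RefSeq windows (build GRCm38.p6) from 250 bases before to 50 bases after each start, 34 members were found. Atf6, Erp29, Hyou1, Derl1 and Manf were not matched. The letters CCAAT, then 9 bases of any kind (NNNNNNNNN), then CCACG form the ER stress response element (ERSE) that ATF6 binds together with NF-Y. They were searched on both strands and were found in 39 of 32851 windows of all genes (0.119%). Counted by gene, they were found at 37 of 27025 genes and at 9 of the 34 members (26.5%), which had 42 windows. The letters are in capitals below, on the strand of each gene, and read CGTGG first where the match is on the other strand. A match describes these letters and is not evidence of a bound site. For Hspa5 a shorter stretch is given because it lies in an exon of another annotated transcript.
Hspa5 (chr2:34772020-34772048, plus strand): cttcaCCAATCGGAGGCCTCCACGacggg
Hsp90b1, far match (chr10:86705618-86705676, minus strand): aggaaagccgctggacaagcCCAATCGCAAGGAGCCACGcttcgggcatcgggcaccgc
Hsp90b1, near match (chr10:86705513-86705571, minus strand): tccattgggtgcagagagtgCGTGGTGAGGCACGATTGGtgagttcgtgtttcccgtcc
Calr (chr8:84847055-84847113, minus strand): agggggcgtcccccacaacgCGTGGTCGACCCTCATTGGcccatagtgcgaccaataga
Canx (chr11:50325780-50325838, minus strand): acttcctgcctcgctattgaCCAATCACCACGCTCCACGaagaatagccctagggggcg
Pdia6 (chr12:17266471-17266529, plus strand): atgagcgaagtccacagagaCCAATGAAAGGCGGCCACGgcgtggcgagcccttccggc
Dnajc3 (chr14:118937807-118937865, plus strand): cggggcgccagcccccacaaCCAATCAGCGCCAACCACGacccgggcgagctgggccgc
Creld2 (chr15:88819500-88819558, plus strand): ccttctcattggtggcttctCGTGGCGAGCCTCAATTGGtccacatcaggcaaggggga
Syvn1 (chr19:6046512-6046570, plus strand): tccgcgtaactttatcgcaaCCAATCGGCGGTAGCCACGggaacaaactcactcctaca
Derl3 (chr10:75893222-75893280, plus strand): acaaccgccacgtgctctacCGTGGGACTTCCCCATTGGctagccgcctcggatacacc

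In Syvn1 the match ended 26 bases before the start and in Hspa5 it ended 47 bases before it, whereas the far match of Hsp90b1 began 212 bases before it. The shorter element ERSE-II, ATTGG and CCACG with 1 base of any kind between them, was found in 12 windows (0.0365%), of which Herpud1 and Dnajb11 are members, and in Dnajb11 it lay after the start. The unfolded protein response element TGACGTGG, a site of XBP1 and ATF6, was found in 222 windows (0.676%), with Txndc5 and Txndc11 among the members. The letters TGATGCAA, a form of the element that ATF4 binds with C/EBP partners, were found in 294 windows (0.895%), and Herpud1 was the only member among them. None of the 4 elements overlapped another in a member's printed stretch. The 250 bases before the Herpud1 start hold both the ATF4-type letters, on the opposite strand (TTGCATCA), and the ERSE-II letters. They are shown beside those of Xbp1, in which none of the 4 elements was found, because Herpud1 had opposite calls after the drugs and Xbp1 fell after both. Dnajb9, the other member with opposite calls, also had none of the 4 elements in its window. Whether the letters bear on the calls was not tested.
Herpud1 (chr8:94386179-94386428, plus strand): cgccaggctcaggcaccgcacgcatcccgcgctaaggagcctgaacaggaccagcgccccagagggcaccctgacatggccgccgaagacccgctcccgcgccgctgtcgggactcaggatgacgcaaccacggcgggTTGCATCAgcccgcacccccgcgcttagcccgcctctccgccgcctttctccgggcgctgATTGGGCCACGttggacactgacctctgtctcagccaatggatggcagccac
Xbp1 (chr11:5520391-5520640, plus strand): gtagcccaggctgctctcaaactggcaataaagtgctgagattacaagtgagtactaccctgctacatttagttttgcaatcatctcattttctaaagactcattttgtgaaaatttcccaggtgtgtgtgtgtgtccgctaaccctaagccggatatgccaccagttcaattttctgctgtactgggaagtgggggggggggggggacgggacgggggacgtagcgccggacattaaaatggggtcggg

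Most members fell after oxaliplatin, and fewer fell after cisplatin. A call is a DESeq2 adjusted p under 0.05 over all genes tested. After oxaliplatin, 30 of the 38 tested members fell and 0 rose, where 20.2% of all genes tested were called (9.50% lower and 10.7% higher). After cisplatin, 13 fell and 2 rose (Dnajb9 and Herpud1), where 28.1% of all genes were called (12.4% lower and 15.7% higher). Between the drugs at equal dose, 19 members were lower after oxaliplatin than after cisplatin and 0 were higher, where 19.9% of all genes were called (11.3% lower and 8.62% higher). The fold changes were small: the median log2 fold change of the members was -0.35 for oxaliplatin against control, -0.12 for cisplatin against control and -0.19 for oxaliplatin against cisplatin, while the medians over all genes tested were -0.00285, -0.000832 and -0.00333. Both drug comparisons use the same control libraries, and the members were chosen with earlier results of these data known. With edgeR's quasi-likelihood test in place of DESeq2, 32, 20 and 24 members were called, where 30.9%, 40.9% and 31.9% of all genes were. With a minimum absolute log2 fold change of 0.5 added to the DESeq2 rule, 7, 2 and 2 members were called, where 4.38%, 7.90% and 4.09% of all genes were.

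Since well-counted genes are called more often, the background was also taken among the 4959 genes whose mean normalised count (the count divided by a size factor of the library) reached 1000. Of these, 39.9% were called after oxaliplatin, 49.3% after cisplatin and 38.9% between the drugs, and 16.6%, 16.3% and 24.3% were called lower. Among the 32 members at that level, 25, 12 and 17 were called in the same comparisons, and 25, 11 and 17 were called lower. After cisplatin the 12 called members were a smaller share than that of all genes at that level. For cisplatin, fewer members were called when either cisplatin library was left out, and the share of all genes called fell too. The median log2 fold change of the members was -0.13 without cisplatin replicate 1 and -0.11 without cisplatin replicate 2. Between the drugs, fewer members and a smaller share of all genes were called without oxaliplatin replicate 1, and the members' median was -0.18. With counts scaled to the library total, 25 members were called after cisplatin (2 higher, 23 lower), where 28.1% of all genes were.

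Taken by their order, the group means of 26 of the 38 tested members were lowest after oxaliplatin, intermediate after cisplatin and highest in control cells. In 6 others the oxaliplatin mean was lowest and the cisplatin mean highest, in 3 the cisplatin mean was lowest and the control mean highest, and the remaining 3 had other orders. The orders were not counted over all genes, so these counts do not show whether the members differ from other genes. Together, the 39 genes took 1.341% and 1.34% of all counts in the control libraries, 1.022% and 1.052% after oxaliplatin and 1.212% and 1.198% after cisplatin. The libraries of the groups did not overlap in this share, and cisplatin lay between the others.

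**Figure D1:**
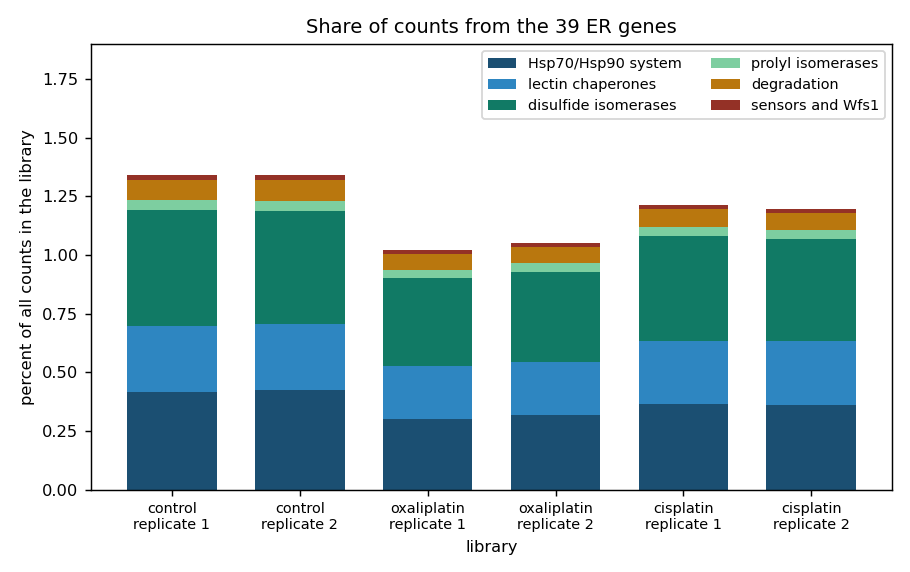
Stacked bars show the percent of all counts in each of the 6 libraries that fell in the 39 genes, split by role. The whole bars stand at 1.341 and 1.34 in control, 1.022 and 1.052 after oxaliplatin and 1.212 and 1.198 after cisplatin, with disulfide isomerases and the Hsp70 and Hsp90 system as the largest layers.

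**Figure D2:**
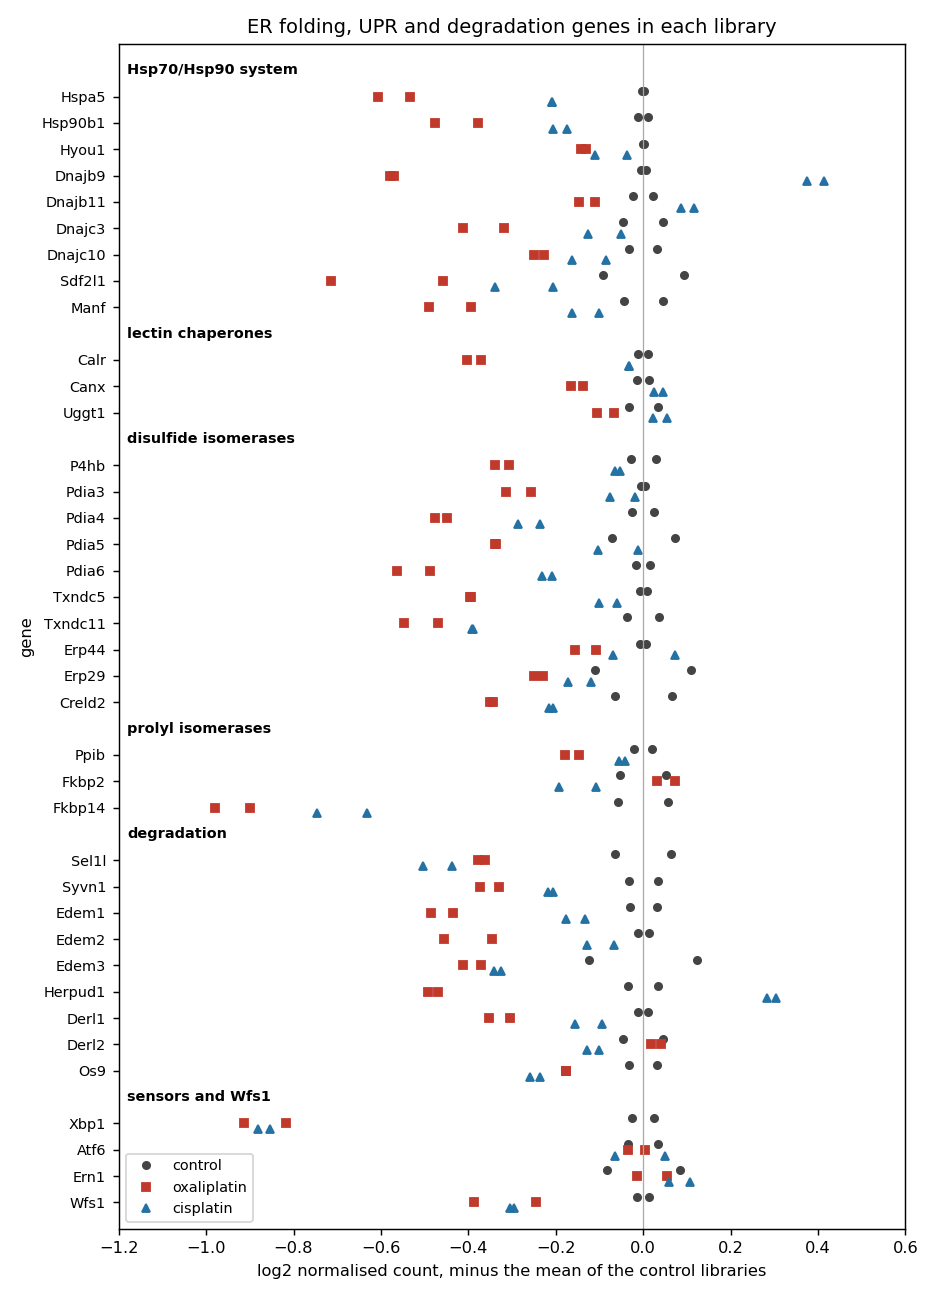
Each point is 1 library, placed on the x axis by its log2 normalised count minus the mean of the control libraries, for the 38 tested members grouped by role on the y axis. Oxaliplatin points lie left of 0 for most genes, Dnajb9 and Herpud1 have cisplatin points right of 0, and Xbp1 and Fkbp14 lie far left after both drugs.

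Levels between genes were compared per length, as CPM per kilobase of exon, where the length holds every exon base of any annotated transcript of the gene. In control cells P4hb stood highest at 715 ± 18.4 (SD, n = 2), followed by Calr at 633 ± 5.44, Hsp90b1 at 412 ± 5.71, Hspa5 at 369.5 ± 1.61 and Pdia3 at 326 ± 2.3. These neighbours in the order were separated by more than their SDs. The same 5 genes were the highest in each group, although after oxaliplatin Pdia3, at 265 ± 7.2, stood above Hspa5, at 247 ± 8.91, by little more than the sum of their SDs. The transcription factor and sensor genes stood low, with Xbp1 at 22.6 ± 0.497, Atf6 at 7.57 ± 0.272, Ern1 at 6.75 ± 0.567 and Wfs1 at 4.65 ± 0.0706 in control cells. These values depend on the length used, which was 3248 bases for Xbp1, 9231 for Atf6 and 8173 for Ern1. The mean normalised counts of Xbp1 and Atf6 in control were closer, at 1622 and 1546. Atf6 and Ern1, neighbours in the control order, differed by less than the sum of their SDs. Derl3 was listed at 1 and 2 counts in control, 5 and 10 after oxaliplatin and 1 and 5 after cisplatin, and no fold change is given for it.

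The Hsp70 and Hsp90 system fell almost as a whole after oxaliplatin, with 8 of 9 genes called lower, 2 lower and 1 higher after cisplatin, and 6 lower after oxaliplatin than after cisplatin. Hspa5 (ENSMUSG00000026864, chr2:34771970-34777547), the ER Hsp70 also known as BiP, which holds the sensors inactive when few unfolded proteins are present and whose start carries the ERSE letters, had normalised counts of 34507 and 34606 in the control libraries, 22683 and 23888 after oxaliplatin and 29883 and 29926 after cisplatin. The groups did not overlap, and each drug stood below control. Its log2 fold change was -0.57 ± 0.03 (adjusted p = 1.38e-58) after oxaliplatin, -0.21 ± 0.03 (adjusted p = 2.02e-08) after cisplatin and -0.36 ± 0.03 (adjusted p = 1.31e-23) between the drugs, so that Hspa5 fell by 32.6% after oxaliplatin and fell by 13.5% after cisplatin. Hsp90b1 (ENSMUSG00000020048, chr10:86690209-86705509), the ER Hsp90 (GRP94), had 36413 and 37012 in the control libraries, 26406 and 28259 after oxaliplatin and 32539.7 and 31820.5 after cisplatin. Hsp90b1 showed the same order as Hspa5 without overlap, with log2 fold changes of -0.43 ± 0.04 (adjusted p = 2.53e-25), -0.19 ± 0.04 (adjusted p = 1.26e-05) and -0.24 ± 0.04 (adjusted p = 4.99e-08) in the same order of comparisons.

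Hyou1, an Hsp70-like exchange factor of BiP, had normalised counts of 6440.0 and 6452 in the control libraries, 5844 and 5888 after oxaliplatin and 5974 and 6285 after cisplatin. The oxaliplatin libraries lay below control, but the fall was small at -0.14 ± 0.04 (adjusted p = 0.0129), and it was no longer called when any control or oxaliplatin library was left out. The cisplatin value of -0.07 ± 0.04 was not called (95% interval -0.16 to 0.01). Sdf2l1, which acts with the co-chaperone Dnajb11, had 971 and 854 in the control libraries, 555 and 663 after oxaliplatin and 789 and 720.4 after cisplatin. The libraries ran in 3 separate steps, and Sdf2l1 fell by 33.3% after oxaliplatin, a log2 fold change of -0.58 ± 0.13 (adjusted p = 5.22e-05), while the cisplatin value of -0.27 ± 0.13 and the value between the drugs of -0.31 ± 0.13 did not pass (adjusted p = 0.083 and 0.0587). Manf, a small secreted protein that binds BiP and is induced by ER stress, had 2393 and 2248 in the control libraries, 1652 and 1764 after oxaliplatin and 2163 and 2071 after cisplatin. Oxaliplatin stood below both other groups, at -0.44 ± 0.07 (adjusted p = 2.09e-08) against control and -0.31 ± 0.07 (adjusted p = 1.97e-04) against cisplatin, and the latter call was lost without oxaliplatin replicate 1 or cisplatin replicate 1. Manf shares 146 exon bases with Dcaf1 on the opposite strand and 14 with Rbm15b on its own strand, which had means of 1526 and 1759 counts.

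The J-domain co-chaperones, which bring clients to BiP and start its ATP cycle, did not move alike. Dnajb9 (ENSMUSG00000014905, chr12:44205559-44210326), also called ERdj4, which binds IRE1 and takes part in degradation, had normalised counts of 337 and 339.9 in the control libraries, 227 and 228 after oxaliplatin and 439 and 451 after cisplatin. Oxaliplatin libraries were the lowest and cisplatin libraries the highest, with log2 fold changes of -0.57 ± 0.15 (adjusted p = 0.00115) after oxaliplatin, 0.39 ± 0.14 (adjusted p = 0.0225) after cisplatin and -0.97 ± 0.15 (adjusted p = 2.19e-09) between the drugs. The rise after cisplatin was lost when any 1 of the 6 libraries was left out, and the fall after oxaliplatin was lost without control replicate 2 or either oxaliplatin library. The difference between the drugs was called in all 18 alternatives. Dnajb11 (ERdj3), the J-protein with the highest level per length in this list, had 3511 and 3404 in the control libraries, 3120.3 and 3204 after oxaliplatin and 3748 and 3668 after cisplatin. Control libraries lay between the drugs, and the log2 value between the drugs was the 1 called, at -0.23 ± 0.05 (adjusted p = 1.62e-04), and it was lost without oxaliplatin replicate 1 or cisplatin replicate 1.

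Dnajc3 (p58IPK), which assists BiP in the lumen, had normalised counts of 3487 and 3717 in the control libraries, 2705 and 2886 after oxaliplatin and 3299.8 and 3478 after cisplatin. Oxaliplatin stood below the other groups, whereas the cisplatin libraries lay just under control. Its log2 fold change was -0.37 ± 0.06 (adjusted p = 1.95e-07) against control and -0.28 ± 0.06 (adjusted p = 1.56e-04) against cisplatin, and the latter was lost without oxaliplatin replicate 1. Dnajc10 (ERdj5), which reduces disulfide bonds of proteins bound for degradation, had 4449.7 and 4656 in the control libraries, 3830.5 and 3887 after oxaliplatin and 4065 and 4289 after cisplatin. These libraries also ran in steps, and the fall of -0.24 ± 0.05 (adjusted p = 8.96e-05) after oxaliplatin was called, while -0.12 ± 0.05 after cisplatin was not (adjusted p = 0.0595).

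Of the 3 lectin chaperone genes, Calr and Canx fell after oxaliplatin and none was called after cisplatin. Calr (ENSMUSG00000003814, chr8:84841850-84846934) encodes calreticulin, the soluble lectin that holds glycoproteins with 1 terminal glucose and buffers calcium. Its normalised counts were 40612 and 39989.7 in the control libraries, 30479 and 31144 after oxaliplatin and 39401 and 39372 after cisplatin. The oxaliplatin libraries stood apart, and the cisplatin libraries lay close under control, with log2 fold changes of -0.39 ± 0.03 (adjusted p = 3.89e-39) after oxaliplatin, -0.03 ± 0.03 (adjusted p = 0.414) after cisplatin and -0.35 ± 0.03 (adjusted p = 9.84e-33) between the drugs. The 95% interval for cisplatin was -0.09 to 0.02. Calr was called lower after cisplatin with total-count scaling and with GC content and length trends removed. By the normalised means, Calr fell by 23.5% after oxaliplatin.

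Canx, the membrane-bound relative calnexin, had normalised counts of 17506 and 17844 in the control libraries, 15765 and 16059.8 after oxaliplatin and 17988 and 18248 after cisplatin. The oxaliplatin libraries were the lowest. Canx fell after oxaliplatin, at -0.15 ± 0.03 (adjusted p = 4.01e-05), and was lower than after cisplatin, at -0.19 ± 0.03 (adjusted p = 2.05e-07). The first of these 2 calls, that against control, was lost without oxaliplatin replicate 1. The cisplatin value was 0.04 ± 0.03 (95% interval -0.03 to 0.10), and it was called higher when trends with GC content and length were removed. Uggt1, which puts glucose back on glycoproteins that are not yet folded, had 4269 and 4470.0 in the control libraries, 4172 and 4061 after oxaliplatin and 4436 and 4534 after cisplatin. The oxaliplatin libraries were the lowest, but none of its 3 values passed the test, with 95% intervals of -0.19 to 0.01 for oxaliplatin and -0.06 to 0.14 for cisplatin against control and -0.12 ± 0.05 between the drugs (adjusted p = 0.0575). With GC content and length trends removed, Uggt1 was called higher after cisplatin at a log2 fold change of 0.18, and lower after oxaliplatin than after cisplatin at -0.24, with or without the replicate block. With edgeR the value between the drugs was also called.

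Disulfide isomerases and their partners fell in 9 of 10 cases after oxaliplatin and in 4 of 10 after cisplatin, and 6 were lower after oxaliplatin than after cisplatin. P4hb (ENSMUSG00000025130, chr11:120560298-120573253), the protein disulfide isomerase itself and also the beta subunit of the enzyme that hydroxylates prolines of collagen, had normalised counts of 46136 and 44342 in the control libraries, 35780.4 and 36588 after oxaliplatin and 43575 and 43254 after cisplatin. Pdia3 (ERp57), the isomerase that works with calnexin and calreticulin, had 22562 and 22714 in the control libraries, 18225 and 18949.8 after oxaliplatin and 22360.1 and 21465 after cisplatin. Both genes were lowest after oxaliplatin and nearly level between control and cisplatin. P4hb had log2 fold changes of -0.32 ± 0.03 (adjusted p = 1.93e-21) after oxaliplatin and -0.26 ± 0.03 (adjusted p = 2.29e-14) between the drugs, against -0.06 ± 0.03 after cisplatin (95% interval -0.12 to 0.00). Pdia3 had -0.28 ± 0.04 (adjusted p = 4.94e-13) and -0.24 ± 0.04 (adjusted p = 3.29e-09), against -0.05 ± 0.04 after cisplatin (95% interval -0.12 to 0.02). With total-count scaling both genes were called lower after cisplatin. P4hb was also called lower there with GC content and length trends removed, with or without the replicate block.

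Pdia4 (ERp72), an isomerase with 3 active thioredoxin domains, and Pdia6 (P5), which also binds IRE1, fell after both drugs and further after oxaliplatin. Pdia4 had normalised counts of 8272 and 8568 in the control libraries, 6055 and 6164 after oxaliplatin and 7145 and 6908 after cisplatin. Pdia6 had 11623 and 11369.6 in the control libraries, 7784 and 8199 after oxaliplatin and 9944 and 9790.3 after cisplatin. In both genes the 3 groups were separate. Log2 fold changes of Pdia4 were -0.46 ± 0.04 (adjusted p = 1.66e-24), -0.26 ± 0.04 (adjusted p = 2.55e-08) and -0.20 ± 0.04 (adjusted p = 4.67e-05) for oxaliplatin, cisplatin and the difference between them. Those of Pdia6 were -0.52 ± 0.04 (adjusted p = 3.25e-34), -0.22 ± 0.04 (adjusted p = 1.19e-06) and -0.30 ± 0.04 (adjusted p = 1.25e-11).

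Txndc5 (ERp46) and Pdia5 are isomerases that oxidise or reduce client proteins. Txndc5 had normalised counts of 12208 and 12069 in the control libraries, 9224 and 9242 after oxaliplatin and 11648 and 11317 after cisplatin, and Pdia5 had 1489 and 1347 in the control libraries, 1119.6 and 1121 after oxaliplatin and 1405 and 1319 after cisplatin. Oxaliplatin was below both other groups in each gene. With total-count scaling, and with GC content and length trends removed, Txndc5 was called lower after cisplatin. Txndc5 had a log2 fold change of -0.39 ± 0.04 (adjusted p = 1.25e-25) against control and -0.31 ± 0.04 (adjusted p = 2.53e-16) against cisplatin, and Pdia5 had -0.34 ± 0.09 (adjusted p = 8.73e-04) and -0.28 ± 0.09 (adjusted p = 0.00783). Leaving out either oxaliplatin library ended both calls of Pdia5 and none of Txndc5. The first Pdia5 call was also lost without control replicate 1, and the other without either cisplatin library.

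Txndc11, a membrane thioredoxin protein that binds EDEM proteins, had normalised counts of 1342 and 1276 in the control libraries, 896 and 946 after oxaliplatin and 999 and 997 after cisplatin. Creld2, a protein with EGF-like domains that is induced by ER stress, had 1467 and 1339.9 in the control libraries, 1106 and 1099 after oxaliplatin and 1216 and 1208 after cisplatin. In these genes both drugs stood below control. Txndc11 fell by 29.7% after oxaliplatin and fell by 23.8% after cisplatin, with log2 fold changes of -0.51 ± 0.09 (adjusted p = 1.31e-07) and -0.39 ± 0.09 (adjusted p = 6.13e-05). The drugs differed by -0.12 ± 0.09 in Txndc11, which was not called (95% interval -0.29 to 0.06). Txndc11 shares 75 exon bases with Snn on the opposite strand, which had a mean of 999 counts. Creld2 had -0.35 ± 0.08 (adjusted p = 3.82e-04) and -0.21 ± 0.08 (adjusted p = 0.0404), and the cisplatin call was lost whenever any library was left out, the oxaliplatin call without control replicate 1.

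Erp29, a lumenal protein of thioredoxin fold without an active site, had normalised counts of 2588 and 2225 in the control libraries, 2018 and 2046 after oxaliplatin and 2211 and 2130.4 after cisplatin. Its fall after oxaliplatin was -0.24 ± 0.08 (adjusted p = 0.0148), and its cisplatin value was -0.15 ± 0.08. The first was lost without control replicate 1 or either oxaliplatin library, and the other was called without control replicate 2. The gene shares 2210 exon bases with Naa25 on the opposite strand, which had a mean of 2522 counts, so its counts are uncertain where counting did not use strand. Erp44, which returns escaped proteins to the ER, had 1504 and 1519 in the control libraries, 1357 and 1403 after oxaliplatin and 1590.1 and 1441 after cisplatin. The oxaliplatin libraries lay below the others, and control and cisplatin overlapped. None of its comparisons was called, with a 95% interval of -0.29 to 0.03 for oxaliplatin against control.

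The prolyl isomerases differed among themselves. Fkbp14 (ENSMUSG00000038074, chr6:54577604-54597308), an isomerase of the ER that binds collagen, had normalised counts of 939 and 1017 in the control libraries, 524 and 495 after oxaliplatin and 630.3 and 582 after cisplatin. It fell by 47.9% after oxaliplatin and fell by 38% after cisplatin, and no tested member fell further after oxaliplatin in the fitted values. The log2 fold changes were -0.94 ± 0.11 (adjusted p = 2.80e-15) and -0.69 ± 0.11 (adjusted p = 8.80e-09), and the drugs differed by -0.25 ± 0.11 (adjusted p = 0.0946), which did not pass. Fkbp14 shares 208 exon bases with Plekha8 on the opposite strand, which had a mean of 460.5 counts against 699.5 for Fkbp14.

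Ppib, or cyclophilin B, which acts on collagen and other secreted proteins, had normalised counts of 7199.6 and 6996 in the control libraries, 6268 and 6409 after oxaliplatin and 6891 and 6826 after cisplatin. The groups were separate, with a fall of -0.16 ± 0.04 (adjusted p = 7.88e-04) after oxaliplatin and a value of -0.11 ± 0.04 (adjusted p = 0.0297) between the drugs that was lost when any library was left out. The fall was lost without control replicate 1 or oxaliplatin replicate 1. Fkbp2, another ER isomerase, had 1227 and 1141 in the control libraries, 1209.7 and 1244 after oxaliplatin and 1098 and 1034 after cisplatin. Its oxaliplatin libraries were not below control, and its log2 value of 0.20 ± 0.09 between the drugs pointed the other way from most members but did not pass (adjusted p = 0.0747). It was called with edgeR, with total-count scaling and with GC content and length trends removed.

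Genes of ER-associated degradation fell in 8 of 9 tested cases after oxaliplatin, while after cisplatin 5 fell and 1 rose, and 4 were lower after oxaliplatin than after cisplatin. Herpud1 (ENSMUSG00000031770, chr8:94386438-94395377), a membrane scaffold that gathers the degradation complex and is itself a short-lived product of ER stress, had normalised counts of 2156 and 2261 in the control libraries, 1595 and 1569 after oxaliplatin and 2727 and 2689 after cisplatin. The groups were well apart, with oxaliplatin lowest and cisplatin highest. Its log2 fold change was -0.48 ± 0.07 (adjusted p = 6.35e-12) after oxaliplatin, 0.29 ± 0.06 (adjusted p = 3.11e-05) after cisplatin and -0.78 ± 0.06 (adjusted p = 5.74e-31) between the drugs. All 3 calls held under every alternative other than a minimum log2 fold change of 0.5, under which the difference between the drugs was still called. Herpud1 and Dnajb9 were the only members called in opposite directions by the drugs.

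Sel1l, the adaptor of the ubiquitin ligase, had normalised counts of 2949 and 3224 in the control libraries, 2371 and 2399 after oxaliplatin and 2176 and 2277 after cisplatin. Os9, a lectin that hands glycoproteins to Sel1l, had 2045 and 2138 in the control libraries, 1850.2 and 1850.3 after oxaliplatin and 1749 and 1776 after cisplatin. In Sel1l and Os9 the cisplatin libraries were the lowest of the 3 groups, although the difference between the drugs did not pass the test, with 0.10 ± 0.07 for Sel1l (95% interval -0.03 to 0.23) and 0.07 ± 0.07 for Os9 (95% interval -0.06 to 0.20). Sel1l fell by 22.7% after oxaliplatin and fell by 27.9% after cisplatin, at -0.37 ± 0.07 (adjusted p = 5.49e-07) and -0.47 ± 0.07 (adjusted p = 7.37e-11). Os9 had -0.18 ± 0.07 (adjusted p = 0.0336) and -0.25 ± 0.07 (adjusted p = 0.0013), and its oxaliplatin call was lost when any library was left out, its cisplatin call without control replicate 2 or either cisplatin library.

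Syvn1, the ubiquitin ligase HRD1, had normalised counts of 1846 and 1763 in the control libraries, 1393 and 1435 after oxaliplatin and 1564 and 1552 after cisplatin. Both drugs stood below control, with -0.35 ± 0.07 (adjusted p = 1.75e-05) after oxaliplatin and -0.21 ± 0.07 (adjusted p = 0.014) after cisplatin, and the latter call was lost when any library was left out. The drugs differed by -0.14 ± 0.07, which was not called (95% interval -0.28 to 0.00). Syvn1 shares 91 exon bases with Mrpl49 on the opposite strand. Derl1, a channel protein of the same complex, had 3775 and 3718 in the control libraries, 3031 and 2936 after oxaliplatin and 3512 and 3362 after cisplatin. It was lower after oxaliplatin than in either other group, at -0.33 ± 0.05 (adjusted p = 4.39e-08) and -0.20 ± 0.05 (adjusted p = 0.00159), and the latter was lost without either oxaliplatin library or cisplatin replicate 1. Derl2, its close relative, had 1069.9 and 1141 in the control libraries, 1119 and 1137 after oxaliplatin and 1030.3 and 1009.9 after cisplatin. Control and oxaliplatin overlapped and the cisplatin libraries lay below both, but no comparison was called, with 95% intervals of -0.14 to 0.20 for oxaliplatin and -0.29 to 0.05 for cisplatin against control. It shares 231 exon bases with Mis12 on the opposite strand.

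The EDEM proteins trim mannose from glycoproteins and so mark them for degradation. Edem1 had normalised counts of 3215 and 3355 in the control libraries, 2347 and 2429 after oxaliplatin and 2906 and 2994 after cisplatin. Edem2 had 749 and 763 in the control libraries, 551 and 595 after oxaliplatin and 722 and 692 after cisplatin, and Edem3 had 988 and 1173 in the control libraries, 833 and 808 after oxaliplatin and 859.7 and 850.3 after cisplatin. All 3 genes were lower after oxaliplatin, at -0.46 ± 0.06 (adjusted p = 2.92e-13), -0.40 ± 0.11 (adjusted p = 0.0017) and -0.40 ± 0.11 (adjusted p = 0.00195). After cisplatin the values were -0.16 ± 0.06 (adjusted p = 0.0275), -0.10 ± 0.11 (adjusted p = 0.541) and -0.34 ± 0.11 (adjusted p = 0.00841), so that Edem2 was not called, and the call of Edem1 was lost when any library was left out. Between the drugs Edem1 differed by -0.30 ± 0.06 (adjusted p = 4.50e-06) and Edem2 by -0.30 ± 0.11 (adjusted p = 0.0253), and Edem3 by -0.06 ± 0.11, which was not called. The difference of Edem2 was lost when any library was left out, and its fall after oxaliplatin without control replicate 2 or oxaliplatin replicate 1. Both falls of Edem3 were lost without control replicate 2, and each without either library of its own drug.

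Of the members listed with the sensors, the transcription factor gene Xbp1 was called lower after both drugs, and Ern1, Atf6 and Wfs1 were not called. Eif2ak3, the gene of the sensor PERK, is not a member. It fell after both drugs and is described below. Xbp1 (ENSMUSG00000020484, chr11:5520659-5525893), whose mRNA is cut by IRE1 and rejoined to encode the active factor, had normalised counts of 1649.9 and 1594 in the control libraries, 861 and 921 after oxaliplatin and 898 and 881 after cisplatin. Both drugs brought it well below control, and the libraries of the drugs overlapped. Xbp1 fell by 45.1% after oxaliplatin and fell by 45.2% after cisplatin, with log2 fold changes of -0.87 ± 0.09 (adjusted p = 7.84e-22) and -0.87 ± 0.09 (adjusted p = 5.90e-22). The difference between the drugs was 0.00 ± 0.09 (adjusted p = 0.994), with a 95% interval of -0.17 to 0.18. The table counts reads per gene and does not tell spliced from unspliced Xbp1 mRNA.

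Ern1, which encodes the IRE1 sensor that cuts Xbp1 mRNA, had normalised counts of 1149 and 1289.7 in the control libraries, 1264 and 1206 after oxaliplatin and 1269 and 1312 after cisplatin. Atf6, the sensor that is cleaved in the Golgi, had 1509 and 1582 in the control libraries, 1549 and 1507 after oxaliplatin and 1478 and 1600.3 after cisplatin. Control libraries overlapped those of each drug in both genes, and the drugs overlapped in Atf6, whereas in Ern1 the oxaliplatin libraries lay just below those of cisplatin. Their 95% intervals against control were -0.16 to 0.19 for Ern1 and -0.17 to 0.14 for Atf6 after oxaliplatin, and -0.10 to 0.26 and -0.16 to 0.15 after cisplatin. Wfs1, an ER membrane protein that lowers ATF6 activity and takes part in calcium balance, had 386 and 393 in the control libraries, 329 and 298 after oxaliplatin and 318 and 315 after cisplatin. Both drugs lay below control at -0.31 ± 0.15 and -0.30 ± 0.15, but neither value passed the test (adjusted p = 0.109 and 0.111). With edgeR both were called.

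**Figure D3:**
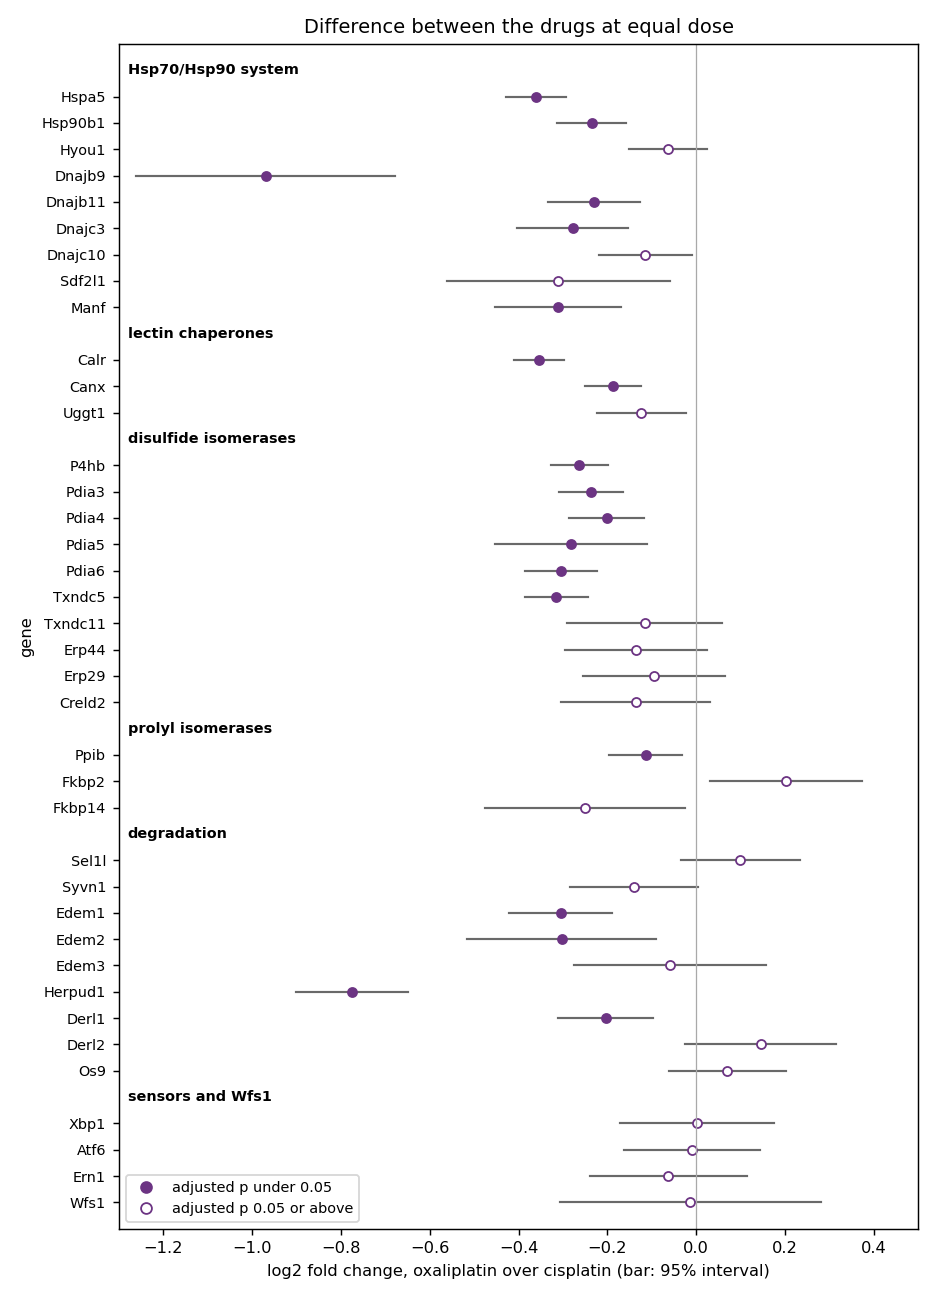
Points are log2 fold changes of oxaliplatin over cisplatin for the 38 tested members by role, with 95% intervals as bars, filled where the adjusted p was under 0.05. The 19 filled points all lie left of 0, led by Dnajb9 and Herpud1, whereas Xbp1 lies at 0.00.

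Oxaliplatin and cisplatin were compared as 1 pair at the same dose and time. Both hold a platinum atom, which in cisplatin carries ammine and chloride ligands and in oxaliplatin a diaminocyclohexane carrier and an oxalate ligand. By their calls, 11 members were lower after oxaliplatin than in both other groups with no call for cisplatin: Dnajc3, Manf, Calr, Canx, P4hb, Pdia3, Pdia5, Txndc5, Ppib, Edem2 and Derl1. Another 5 were lower after both drugs and further after oxaliplatin, namely Hspa5, Hsp90b1, Pdia4, Pdia6 and Edem1. In 8 members (Txndc11, Creld2, Fkbp14, Sel1l, Syvn1, Edem3, Os9 and Xbp1) both drugs were called lower without a call between them, which does not show that the drugs acted alike. A further 4, Hyou1, Dnajc10, Sdf2l1 and Erp29, were called after oxaliplatin alone and not between the drugs. Dnajb9 and Herpud1 had opposite calls, Dnajb11 was called between the drugs alone, and Uggt1, Erp44, Fkbp2, Derl2, Atf6, Ern1 and Wfs1 were called in none of the 3 comparisons. The 3 comparisons share libraries, so their calls are not independent. These patterns were not counted over all genes, and how the members compare with other genes in them is not known.

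The largest log2 differences between the drugs were -0.97 ± 0.15 for Dnajb9 and -0.78 ± 0.06 for Herpud1, which were the members called with a minimum log2 fold change of 0.5. Next came Hspa5 at -0.36 ± 0.03 and Calr at -0.35 ± 0.03. Among the 33 tested members with a promoter window, all 8 with the ERSE letters were called lower after oxaliplatin, 5 after cisplatin and 6 between the drugs. Of the 25 without these letters, 18 were called lower after oxaliplatin, 8 lower and 2 higher after cisplatin, and 11 lower between the drugs. The median log2 fold changes with and without the letters were -0.38 and -0.34 after oxaliplatin, -0.20 and -0.12 after cisplatin, and -0.26 and -0.14 between the drugs. Over all genes tested, 9.50%, 12.4% and 11.3% were called lower in the same comparisons. Among genes reaching a mean of 1000 normalised counts, 16.6%, 16.3% and 24.3% were. Calr, Hsp90b1, Hspa5 and Canx, which carry the letters, are among the members with the highest counts, and well-counted genes are called more often. These counts describe the lists and were not tested.

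Other genes of the same pathways numbered 97, of which 96 were tested. They came from lists written for their function, with earlier results of these data known. After oxaliplatin 36 of them fell and 10 rose, after cisplatin 25 fell and 19 rose, and between the drugs 34 were lower and 4 higher after oxaliplatin. These calls made up 47.9%, 45.8% and 39.6% of the related genes tested, where 20.2%, 28.1% and 19.9% of all genes were called. Among genes whose mean normalised count reached 1000, 39.9%, 49.3% and 38.9% were called. Fewer related genes were called after oxaliplatin without control replicate 2 or either oxaliplatin library, and after cisplatin without either cisplatin library. The same held between the drugs when any 1 oxaliplatin or cisplatin library was left out. In each of these fits the share of all genes called fell as well. The list of the PERK branch holds 12 genes, of which 6 fell and 4 rose after oxaliplatin, 8 rose and 1 fell after cisplatin, and 9 were lower and 0 higher after oxaliplatin than after cisplatin. The median log2 fold changes were -0.23, 0.35 and -0.55.

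Eif2ak3, the gene of the sensor PERK, had normalised counts of 963 and 949 in the control libraries, 630.4 and 649 after oxaliplatin and 703 and 732 after cisplatin. It fell after both drugs, at -0.58 ± 0.10 (adjusted p = 1.12e-07) and -0.41 ± 0.10 (adjusted p = 2.04e-04). Atf4, the transcription factor whose synthesis PERK favours, had 8049 and 7691 in the control libraries, 7563 and 7744 after oxaliplatin and 10157 and 9905 after cisplatin. Control and oxaliplatin libraries overlapped in Atf4, with a 95% interval of -0.12 to 0.04, whereas it rose after cisplatin by 0.35 ± 0.04 (adjusted p = 5.90e-15) on the log2 scale. Ddit3, which encodes the stress factor CHOP, had 758 and 749.8 in the control libraries, 1146 and 1167 after oxaliplatin and 1307 and 1307 after cisplatin. Ddit3 rose after both drugs, at 0.62 ± 0.09 (adjusted p = 3.25e-11) and 0.79 ± 0.09 (adjusted p = 1.39e-18), and the difference of -0.18 ± 0.08 between them was not called.

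Trib3, a pseudokinase induced by ATF4 and CHOP, had normalised counts of 898 and 809.9 in the control libraries, 537 and 504 after oxaliplatin and 1037 and 1025 after cisplatin. Nupr1, a small stress-induced chromatin protein, had 836 and 842 in the control libraries, 525 and 561 after oxaliplatin and 1527 and 1439 after cisplatin. Both genes were lowest after oxaliplatin and highest after cisplatin, the order seen in Herpud1 and Dnajb9. Trib3 had log2 fold changes of -0.71 ± 0.11 (adjusted p = 9.48e-10) and 0.27 ± 0.10 (adjusted p = 0.0284), and Nupr1 had -0.63 ± 0.10 (adjusted p = 4.95e-09) and 0.82 ± 0.09 (adjusted p = 4.52e-17), with differences between the drugs of -0.99 ± 0.11 and -1.45 ± 0.10. Atf3, a stress factor of the same family as ATF4, had 175 and 182 in the control libraries, 234 and 249.7 after oxaliplatin and 365 and 359 after cisplatin. It rose after both drugs and further after cisplatin, at 0.43 ± 0.17 (adjusted p = 0.0488), 1.02 ± 0.17 (adjusted p = 3.70e-08) and -0.58 ± 0.16 (adjusted p = 0.00293) for the difference.

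**Figure D4:**
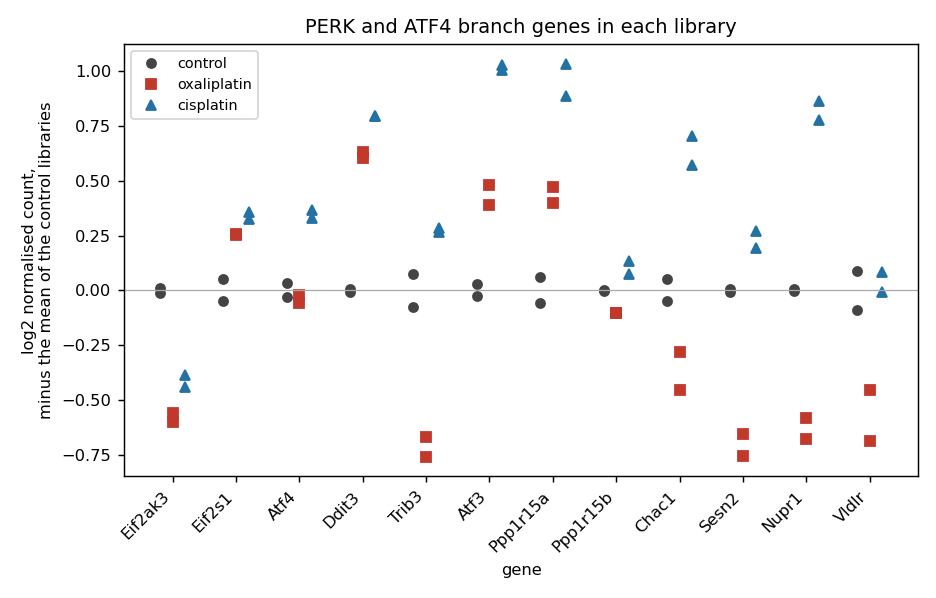
For the 12 PERK branch genes on the x axis, each point is 1 library, placed by its log2 normalised count minus the mean of the control libraries. Cisplatin points of Atf4, Ddit3, Atf3 and Nupr1 lie above 0, oxaliplatin points of Trib3 and Nupr1 lie below 0, and Eif2ak3 lies below 0 after both drugs.

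Of 28 other folding genes, 14 fell and 1 rose after oxaliplatin, and 13 fell and 0 rose after cisplatin. The shares called were 53.6% and 46.4%, against 20.2% and 28.1% of all genes tested. Rcn1, a calcium-binding protein of the ER, had normalised counts of 4992 and 5023, 3249 and 3439, and 4359 and 4081 in the control, oxaliplatin and cisplatin libraries and fell after both drugs, at -0.58 ± 0.06 (adjusted p = 6.26e-23) and -0.25 ± 0.06 (adjusted p = 8.45e-05). Serpinh1, the collagen chaperone HSP47, had 37218 and 36010.4, 31215 and 31286, and 33217 and 32881 in the same order of groups, at -0.23 ± 0.03 (adjusted p = 2.47e-12) and -0.15 ± 0.03 (adjusted p = 1.21e-05). Fkbp9, an ER prolyl isomerase, had 9998 and 9817, 8277 and 8556, and 9215 and 9126, at -0.24 ± 0.04 (adjusted p = 2.79e-08) and -0.11 ± 0.04 (adjusted p = 0.0156). These 3 genes were lowest after oxaliplatin. Mogs, the glucosidase that makes the first cut on a new glycan, had 1737 and 1748, 1516 and 1577, and 1219 and 1287, with -0.17 ± 0.07 after oxaliplatin (not called) and -0.48 ± 0.08 (adjusted p = 6.22e-09) after cisplatin. Dnajb14, a membrane J-protein, had 788 and 852, 676 and 663, and 559 and 509.6, at -0.29 ± 0.11 (adjusted p = 0.0356) and -0.62 ± 0.11 (adjusted p = 6.17e-07). Mogs and Dnajb14 were lowest after cisplatin. Ganab, glucosidase II and the 1 gene of this list that rose after oxaliplatin, was at 0.17 ± 0.03 (adjusted p = 3.36e-06), fell after cisplatin at -0.10 ± 0.03 (adjusted p = 0.017) and stood higher after oxaliplatin than after cisplatin at 0.27 ± 0.03 (adjusted p = 5.29e-14). It is named after its values were seen.

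Of the 14 other oxidoreductases tested, 4 fell after oxaliplatin and 1 rose after cisplatin. That is 28.6% and 7.1% called, where 20.2% and 28.1% of all genes were. Ero1l, the oxidase that recharges disulfide isomerases, had normalised counts of 2609 and 2720.2, 2258 and 2256, and 2832 and 2957 in the control, oxaliplatin and cisplatin libraries, with -0.24 ± 0.06 (adjusted p = 7.09e-04) after oxaliplatin and -0.36 ± 0.06 (adjusted p = 8.22e-08) between the drugs. Prdx4, which removes the peroxide that oxidation makes, had 2689 and 2472, 2032 and 2033, and 2469 and 2317, at -0.34 ± 0.07 (adjusted p = 1.40e-05) after oxaliplatin. Both genes were lowest after oxaliplatin. Qsox1, another sulfhydryl oxidase, was at -0.18 ± 0.07 (adjusted p = 0.0341) after oxaliplatin. Tmx2, a membrane thioredoxin protein, had 1556 and 1551, 1736 and 1671, and 1882 and 1869 and rose after cisplatin at 0.27 ± 0.07 (adjusted p = 5.69e-04). Selenof, a selenoprotein that binds Uggt1, was called by neither drug, with log2 values of -0.00 ± 0.04 and -0.09 ± 0.04.

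Among 27 other degradation genes tested, 8 fell and 2 rose after oxaliplatin, and 5 fell and 6 rose after cisplatin. Calls reached 37.0% and 40.7% of them, against 20.2% and 28.1% of all genes tested. Vcp, the ATPase that pulls proteins out of the ER membrane, had normalised counts of 23485 and 22096, 16039.5 and 16275, and 22640.5 and 22732 in the control, oxaliplatin and cisplatin libraries. Vcp fell after oxaliplatin, at -0.50 ± 0.04 (adjusted p = 9.83e-36), and its cisplatin interval was -0.08 to 0.07. Selenok, an ER selenoprotein of this pathway, had 2015 and 1864, 1347 and 1314, and 1882 and 1877, at -0.54 ± 0.07 (adjusted p = 1.20e-11) after oxaliplatin. Ngly1, which strips glycans from proteins on their way to the proteasome, had 670.4 and 686, 444 and 424, and 411 and 391 and fell after both drugs, at -0.64 ± 0.12 (adjusted p = 1.81e-06) and -0.76 ± 0.12 (adjusted p = 1.12e-08). Erlin1, of the complex that degrades calcium channels of the ER, had 1880.3 and 1948, 2244 and 2233, and 2399.8 and 2573 and rose after both, at 0.23 ± 0.07 (adjusted p = 0.00503) and 0.38 ± 0.07 (adjusted p = 2.77e-07). Ube2g2, a ubiquitin-conjugating enzyme of this pathway, had 1572 and 1534, 1494 and 1536, and 1928 and 1945 and rose after cisplatin at 0.32 ± 0.07 (adjusted p = 4.31e-05).

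The 15 partners of ATF6 and IRE1 were mixed, with 4 lower and 3 higher after oxaliplatin and 6 lower and 4 higher after cisplatin. In all, 46.7% and 66.7% were called, where 20.2% and 28.1% of all genes were. Mbtps1, the Golgi protease that makes the first cut in ATF6, had normalised counts of 6728 and 6699.6, 5286 and 5275, and 5662 and 5991 in the control, oxaliplatin and cisplatin libraries, at -0.35 ± 0.05 (adjusted p = 2.84e-12) and -0.20 ± 0.05 (adjusted p = 7.47e-05). Map3k5, the kinase ASK1 that signals from IRE1 to JNK, had 999 and 1027, 717 and 648, and 658 and 710.1, at -0.57 ± 0.11 (adjusted p = 1.13e-06) and -0.57 ± 0.11 (adjusted p = 1.05e-06). The fitted falls of Map3k5 after the drugs were nearly equal, as those of Xbp1 were. Tmbim6, an inhibitor of IRE1 and of cell death, had 11680.4 and 11041, 10034 and 9907, and 13459 and 13215 and had opposite calls, at -0.19 ± 0.04 (adjusted p = 5.08e-05) and 0.23 ± 0.04 (adjusted p = 1.88e-07). Creb3l2, a membrane-held factor related to ATF6 that raises secretory genes, had 4397 and 4434, 4272 and 4258, and 3215 and 3170.0, was not called after oxaliplatin (-0.05 ± 0.05) and fell after cisplatin at -0.47 ± 0.05 (adjusted p = 4.12e-20).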

How the data were processed

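Poly(A) RNA of TRAMP-C2 cells was sequenced from 6 libraries prepared with a stranded mRNA kit. The deposited table holds expected counts for each gene, which the authors had not scaled between libraries. The submitters' processing notes name STAR 2.5.3a, RSEM 1.3.0 and build GRCm38.p6, without giving the steps in which they were used. For in vitro RNA-seq the methods of the study name a different counter, and whether counting used strand is not given in the sources used here. RSEM shares reads that match several genes among them, and overlapping genes remain uncertain.

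Expected counts were rounded to whole numbers, and a gene was kept if 2 or more libraries had 10 or more counts. Identifiers were matched to GENCODE M21, where 54409 of 54446 matched, 53229 with the same version. DESeq2 1.42.0 (R 4.3.3) was fitted once to the 6 libraries, with group as its only term and independent filtering at 0.1. Log2 fold changes are unshrunken and given with SE or 95% intervals. P-values are from two-sided Wald tests, adjusted by Benjamini-Hochberg over all genes tested. Promoter windows came from RefSeq, and exon lengths from GENCODE.

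Alternatives were edgeR 4.0.16, TMM or total-count scaling, other count filters, no independent filtering, a replicate block, removal of loess trends (span 0.5) with GC content and length, only the libraries compared, leaving out 1 library at a time, and a log2 fold change of 0.5 or more in size as a further condition. The fits were tested on simulated data. Values per library are given for members called in any comparison and for the sensors. From each list of related genes, the 3 with the smallest adjusted p after each drug are named, with Eif2ak3, Atf4, Ddit3, Trib3 and Atf3. The members and lists were chosen with earlier results of these data known.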

Additional observations from a re-analysis of the deposited data

How the results depend on the processing

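With edgeR, 58, 54 and 48 related genes were called for oxaliplatin, cisplatin and the drugs against each other, in place of 46, 44 and 38, and over all genes 4618, 6112 and 4773 in place of 3028, 4203 and 2977. A minimum absolute log2 fold change of 0.5 left 7, 2 and 2 members and 12, 9 and 7 related genes. Total-count scaling gave 25 members after cisplatin and median log2 fold changes of the members of -0.36, -0.17 and -0.16, and it turned the calls over all genes from 2355 higher and 1848 lower to 1826 and 2382 after cisplatin and from 1289 and 1688 to 1619 and 1362 between the drugs. With GC content and length trends removed, the medians were -0.33 for oxaliplatin and -0.10 for cisplatin, with or without the replicate block. Without the block, 22 members were called after cisplatin (4 higher, 18 lower), 13 of them among the 15, where 28.7% of all genes were. Without 1 library, members called ranged from 21 to 29, 9 to 11 and 12 to 17, related genes from 24 to 35, 23 to 34 and 19 to 34, and the member medians from -0.36 to -0.32, -0.13 to -0.11 and -0.22 to -0.18, where the lone library of a group was assumed to vary like the others.

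Deviations of same-numbered libraries from their group means correlated at 0.07, -0.05 and -0.19 over 10731 genes. With 2 libraries per group these values cannot settle whether the replicate numbers in the labels mark a shared culture or batch. With the replicate block, 28, 11 and 17 members and 33, 32 and 28 related genes were called, where 13.1%, 18.9% and 12.4% of all genes were. With oxaliplatin and cisplatin numbers crossed, an alternative chosen after seeing the data, 16 members and 24 related genes were called between the drugs. In that fit 11.4% of all genes were called. The remaining filters and scalings kept each count within 1.5 times its value, and no called member changed sign under any alternative. In these alternatives other than the fold minimum, 20 of 30 members stayed called after oxaliplatin, 9 of 15 after cisplatin and 12 of 19 between the drugs. With 2 libraries per group the spread is poorly known, and the causes of these shifts were not tested.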
